A study of Homo sapiens with 6 samples.

Results

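The data concern 41 genes of the response to low oxygen and of glycolysis, out of 58870 genes in an RNA sequencing count table from HEK-293T cells with and without THUMPD1. They were picked by symbol, and all 41 symbols were found. The set holds 3 subunits of hypoxia-inducible factor (HIF), 2 prolyl hydroxylases that act on HIF, 19 further genes known as HIF targets and 17 glycolytic enzymes. The prolyl hydroxylases are counted among the HIF targets here, which makes 21. DDIT4 is one of the targets, and the question was whether its lower level in THUMPD1 KO cells went with other HIF targets.

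HEK-293T is an immortalized human embryonic kidney line, and THUMPD1 encodes the RNA-binding partner that NAT10 needs to acetylate cytidine in leucine and serine tRNAs. There were 6 libraries, 3 from wild-type cells (WT, genotype label Thumpd+/+) and 3 from knockout cells (THUMPD1 KO, genotype label Thumpd-/-). Both lines were cultured in DMEM, and no low-oxygen treatment is named for either. The knockout was made with CRISPR-Cas9 and grown from a sorted single cell, so that effects of the gene and of the clone cannot be told apart. Nothing says whether the replicates were separate cultures, so p values measure the spread between these libraries, which may be technical.

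HIF is a transcription factor made of an oxygen-sensitive alpha subunit (HIF1A or EPAS1) and a constant partner, ARNT. With oxygen present, prolyl hydroxylases mark the alpha subunit for breakdown. With too little, it builds up, binds short DNA elements with the core ACGTG or GCGTG, and switches on genes for glucose uptake, glycolysis, blood vessel growth and mitophagy. Much of this control acts on HIF protein, which RNA levels do not show. DDIT4 (also REDD1) is a HIF target whose protein restrains mTORC1, and it also answers to ATF4 and glucocorticoids.

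The libraries held 32225646 to 44099898 expected counts each. Levels are given as CPM (each gene's share of a library's counts, scaled to a common total), in which 1 CPM stood for 32.2 to 44.1 counts, and differences as log2 fold changes of THUMPD1 KO over WT from limma-voom, with a gene called where the adjusted p was under 0.05. THUMPD1 itself had 3258, 3315 and 3013 counts per WT library against 395, 529 and 353 per THUMPD1 KO library, a log2 fold change of -2.87 (SE 0.085, limma-voom adjusted p = 3.17e-08). Of markers used for HEK-293T, PAX2, LHX1, NEFM and VIM were present in both groups. NEFM was called lower, with means of 35.3 CPM in WT and 5.33 CPM in THUMPD1 KO. PAX2 and LHX1 were weakly expressed and called higher, with means of 2.32 and 1.35 CPM in WT and 3.77 and 2.19 CPM in THUMPD1 KO. VIM was not called. The markers of blood, liver and pigment cells (PTPRC, HBB, ALB and TYR) had at most 4 counts in any library.

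Of the 41 genes, 39 passed the filter on low counts, and 15 of these were called. In THUMPD1 KO cells 5 were higher and 10 lower, while 24 did not pass the test. Among all 15088 genes tested, 26.7% were called, 13.7% higher and 13% lower. The median log2 fold change of the 39 genes was -0.01, beside 0.02 over all genes, and their median size was 0.14 beside 0.13. For 34 of the 39 the fitted difference was below 0.5 in size on the log2 scale, and it reached 1 in DDIT4 and ADM alone. The 2 groups of libraries did not overlap for 19 of the 39 genes, 7 with THUMPD1 KO above and 12 with it below, against 42.2% of all genes tested (24.5% above, 17.6% below). With scaling by TMM in place of quantiles the calls were 3 higher and 11 lower, where 25.8% of all genes were called (12% higher, 13.9% lower). With DESeq2 they were 3 higher and 12 lower, against 24.3% of all genes (11.1% higher, 13.2% lower). At an adjusted p under 0.01 by limma-voom, 9 of the 39 genes and 13.8% of all genes passed. A difference in a bulk culture can come from more cells with a transcript or from more of it per cell, and these cannot be told apart.

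**Figure D1:**
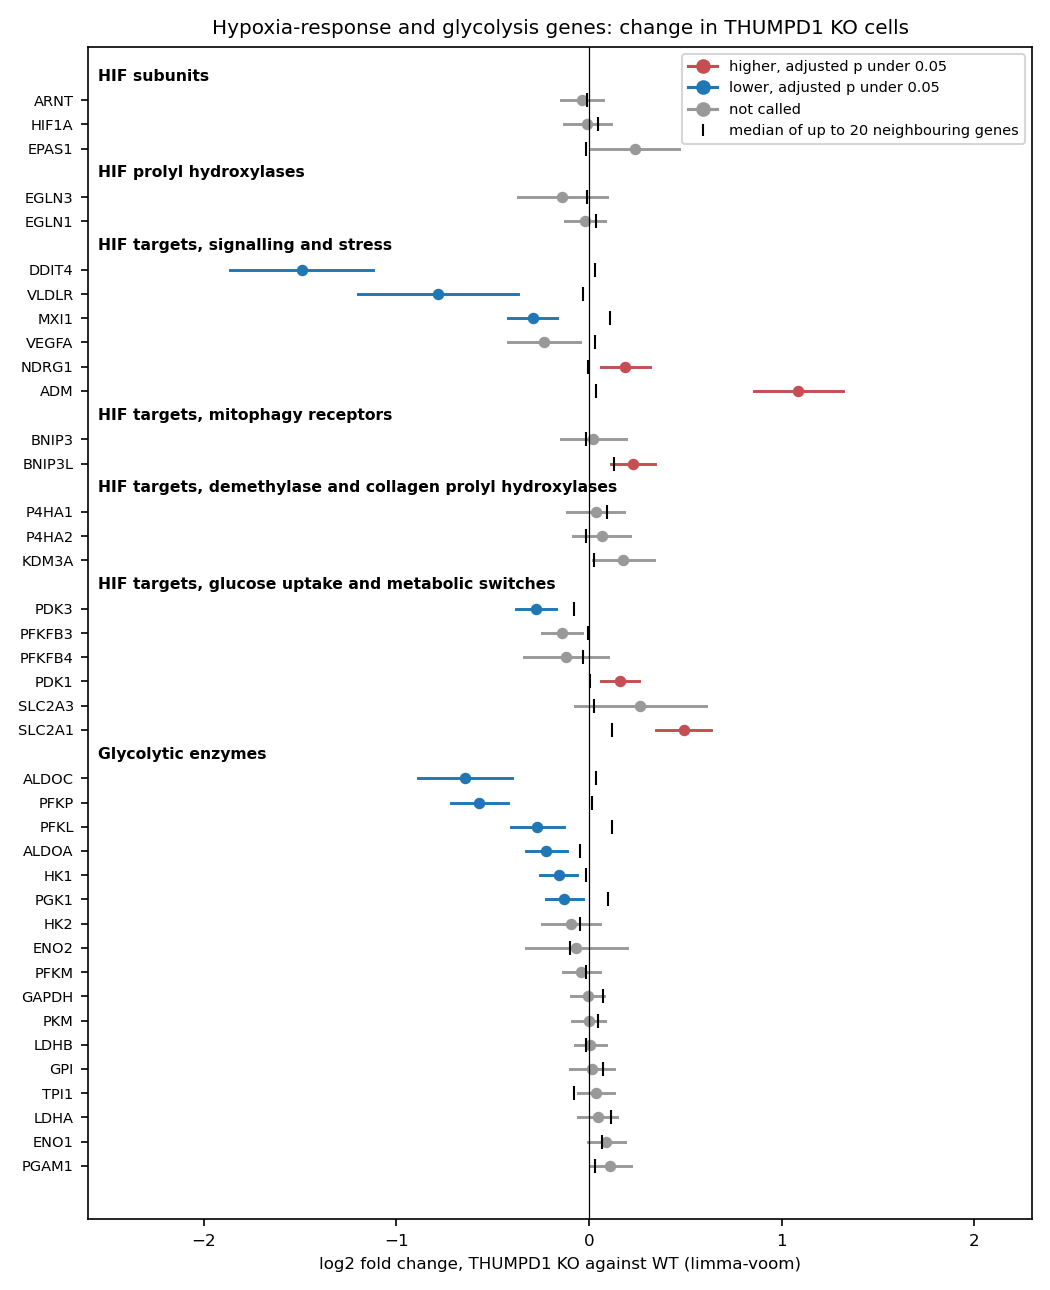
Log2 fold changes of THUMPD1 KO over WT for the 39 genes that passed the filter, grouped by role, with points for the limma-voom estimate, bars for its 95% confidence interval, colour for the call and black ticks for the median of up to 20 neighbouring genes. DDIT4 lies farthest to the left at -1.49 and ADM farthest to the right at 1.09, while most glycolytic enzymes sit close to 0.

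DDIT4 (ENSG00000168209.5, GRCh38 chr10:72273919-72276036, plus strand) was the member with the largest change. Its level was 131.5, 76.2 and 105.0 CPM in WT replicates 1 to 3, against 39.0, 32.8 and 38.4 CPM in the same replicates of THUMPD1 KO. The highest THUMPD1 KO library thus lay well below the lowest WT library, and the WT libraries varied far more among themselves. The means were 104.2 ± 27.7 and 36.7 ± 3.41 CPM (SD, n = 3 each), 2.84-fold lower in THUMPD1 KO. On the log2 scale this was a fitted difference of -1.49 (SE 0.17, limma-voom adjusted p = 0.000151), 74th from the lowest of 15088 genes. Replicate 1 was the highest WT library for DDIT4, and without it the log2 fold change was -1.30 (limma-voom adjusted p = 2.91e-05). In an exact two-sided permutation test on CPM, 2 of the 20 groupings of 3 and 3 libraries gave as large a difference (p = 0.1), the smallest p this design allows. No other gene is annotated over DDIT4 in GENCODE 44. Among the 20 tested genes nearest to it on the chromosome, the median was 0.03 on the same scale.

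The region around the start of DDIT4 holds 4 matches to the HIF core. It is shown with those of ADM and SLC2A1, the HIF targets with the largest called changes besides DDIT4 and VLDLR. VLDLR, which was lower, had 5 GCGTG in its window and is not printed, as that window starts inside the annotated span of the gene. The sequences are RefSeq promoter windows on GRCh38.p14, printed 5′ to 3′ on the strand of the gene from 250 bases before the start to 30 after it, with matches to ACGTG or GCGTG on either strand in capitals. They lie at chr10:72273674-72273953 (plus strand) for DDIT4, chr11:10304823-10305102 (plus strand) for ADM and chr1:42958839-42959118 (minus strand) for SLC2A1.
DDIT4: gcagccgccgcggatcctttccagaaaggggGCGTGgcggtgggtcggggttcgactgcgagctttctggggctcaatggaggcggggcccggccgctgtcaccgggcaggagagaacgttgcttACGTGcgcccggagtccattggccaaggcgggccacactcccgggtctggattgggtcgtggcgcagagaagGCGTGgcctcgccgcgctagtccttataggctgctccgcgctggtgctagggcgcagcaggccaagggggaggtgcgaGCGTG
ADM: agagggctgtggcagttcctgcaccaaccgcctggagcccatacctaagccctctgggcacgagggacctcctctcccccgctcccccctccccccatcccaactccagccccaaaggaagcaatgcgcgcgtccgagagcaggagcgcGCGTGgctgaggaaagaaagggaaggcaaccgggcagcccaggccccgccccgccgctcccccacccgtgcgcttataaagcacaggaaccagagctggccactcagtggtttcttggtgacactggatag
SLC2A1: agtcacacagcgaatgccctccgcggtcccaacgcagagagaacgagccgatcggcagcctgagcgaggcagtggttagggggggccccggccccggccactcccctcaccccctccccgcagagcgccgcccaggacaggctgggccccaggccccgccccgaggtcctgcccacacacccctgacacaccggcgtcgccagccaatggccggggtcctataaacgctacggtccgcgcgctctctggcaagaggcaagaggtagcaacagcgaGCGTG
DDIT4 had 1 ACGTG and 3 GCGTG, and ADM and SLC2A1 had 1 GCGTG each. In windows of 300 bases, which run to 50 bases after the start, 43 of the 63 windows of 37 member genes held either core (68.3%), beside 48.4% of all 35116 promoter windows. The share was 18 of 22 windows for the HIF targets and 23 of 37 for the glycolytic enzymes. By call it was 3 of 4 windows of members that were higher, 15 of 23 of those that were lower and 23 of 34 of those not called. Several genes have more than 1 window, and windows of 1 gene may share bases. A match describes letters and not binding.

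Among the 18 tested HIF targets other than DDIT4, 5 were higher in THUMPD1 KO, 3 were lower and 10 were not called. This was 44.4% called, beside 26.7% of all genes tested (13.7% higher, 13% lower). Their median log2 fold change was 0.03, beside 0.02 over all genes tested. The higher genes were ADM, SLC2A1, BNIP3L, NDRG1 and PDK1, and the lower ones were VLDLR, MXI1 and PDK3. Lower DDIT4 therefore stood beside HIF targets that moved both ways. With DDIT4 the count was 5 higher and 4 lower, and with TMM scaling or DESeq2 it was 3 higher and 6 lower, as NDRG1 and PDK1 were lost and VEGFA and PFKFB3 were added to the lower genes. With the replicate number as a block it was 6 higher and 6 lower, where 35.1% of all genes were called (18.4% higher, 16.7% lower).

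The secreted and cell surface products among the HIF targets included the members with the largest changes after DDIT4. ADM encodes adrenomedullin, a peptide that widens blood vessels (ENSG00000148926.10, GRCh38 chr11:10305073-10307397, plus strand). It stood at 6.86, 5.08 and 4.88 CPM in WT and at 12.7, 11.7 and 11.6 CPM in THUMPD1 KO. All THUMPD1 KO libraries were above all WT libraries by a wide margin, though the gene is weakly expressed. The mean was 2.14-fold higher in THUMPD1 KO, a log2 fold change of 1.09 (SE 0.10, limma-voom adjusted p = 4.83e-05). VEGFA, the vascular growth factor that is a standard readout of HIF activity, was at 93.9, 70.9 and 73.3 CPM in WT and at 68.7, 65.5 and 67.1 CPM in THUMPD1 KO. The groups did not overlap, but WT replicate 1 stood apart from the other WT libraries and those lay near the THUMPD1 KO values. VEGFA was not called, at a log2 fold change of -0.23 (SE 0.086, limma-voom adjusted p = 0.0658). It passed with the replicate block (adjusted p = 0.0133) and without WT replicate 2 (adjusted p = 0.0214), and its adjusted p over all alternatives was 0.00714 to 0.178. Without WT replicate 1 its log2 fold change was -0.11.

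VLDLR, a lipoprotein receptor through which cells under low oxygen take up lipid, followed DDIT4 in direction (ENSG00000147852.16, GRCh38 chr9:2621182-2660056, plus strand). Its levels were 19.5, 10.4 and 11.9 CPM in WT and 8.595, 7.76 and 7.39 CPM in THUMPD1 KO. As for DDIT4 and VEGFA, WT replicate 1 was the highest library. VLDLR fell by 0.78 on the log2 scale (SE 0.19, limma-voom adjusted p = 0.0112), and by 0.53 without WT replicate 1. It did not pass once THUMPD1 KO replicate 3 was left out (limma-voom adjusted p = 0.0520). Across all genes tested WT replicate 1 was the highest WT library for 51.8%, and among the HIF targets it was so for 11 of 19.

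**Figure D2:**
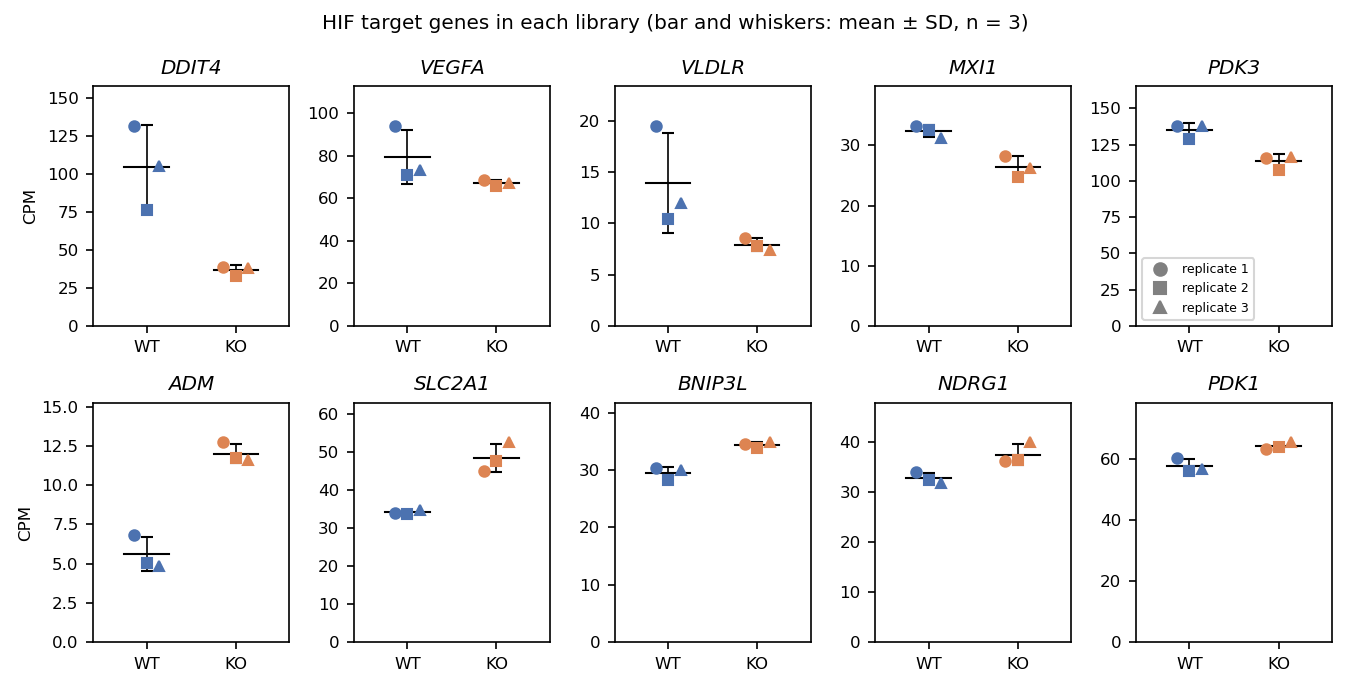
CPM of DDIT4, VEGFA and the 8 other called HIF targets in each library, 1 panel per gene with a linear axis from 0, with horizontal bars for the group means and whiskers for the SD (n = 3). DDIT4 and VLDLR are lower and ADM and SLC2A1 higher in every THUMPD1 KO library, and for VEGFA and VLDLR 1 WT library stands well above the other WT libraries.

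The remaining signalling and stress genes changed little. MXI1, a MAX partner that opposes MYC, was at 33.2, 32.5 and 31.3 CPM in WT and at 28.3, 24.7 and 26.2 CPM in THUMPD1 KO, and it fell by 0.29 on the log2 scale (limma-voom adjusted p = 0.00396). The groups were separate and the call held in every alternative. NDRG1, a stress-response gene that is strongly induced by low oxygen, was at 34.1, 32.4 and 32.0 CPM in WT and at 36.3, 36.5 and 40.00 CPM in THUMPD1 KO, a log2 fold change of 0.19 (limma-voom adjusted p = 0.0320). Its call was lost without WT replicate 2 or 3 and without THUMPD1 KO replicate 2 or 3 (limma-voom adjusted p 0.0703 to 0.117). CA9, a carbonic anhydrase that is among the most inducible HIF targets, had 0 or 1 count per library. ANKRD37 had 21 to 50 counts per library, and both genes fell below the filter. A count of 3 corresponded to 0.0680 to 0.0931 CPM, so CA9 was at or below the limit that counting allows in both groups.

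Mitophagy receptors split between a called and an uncalled gene. BNIP3L stood at 30.3, 28.2 and 29.99 CPM in WT and at 34.6, 33.8 and 34.8 CPM in THUMPD1 KO, a separate pair of groups with a log2 fold change of 0.23 (limma-voom adjusted p = 0.00907). Its close relative BNIP3, the receptor more often used as a HIF readout, was at 35.1, 41.8 and 42.1 CPM in WT and at 39.6, 38.9 and 42.0 CPM in THUMPD1 KO. The BNIP3 groups overlapped, and its log2 fold change was 0.02 (95% confidence interval -0.15 to 0.19, limma-voom adjusted p = 0.854). None of KDM3A, a histone demethylase that needs oxygen, and the collagen prolyl hydroxylases P4HA1 and P4HA2 was called, at log2 fold changes of 0.18, 0.03 and 0.07. KDM3A passed with the replicate block (limma-voom adjusted p = 0.00681 against 0.0902) and without THUMPD1 KO replicate 1 (0.0178).

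Genes of glucose uptake and of the switches that feed or spare the mitochondria also moved both ways. SLC2A1, the main glucose carrier GLUT1 (ENSG00000117394.21, GRCh38 chr1:42925353-42958893, minus strand), was at 33.95, 33.9 and 34.9 CPM in WT and at 45.2, 47.6 and 52.5 CPM in THUMPD1 KO. Its groups were well apart, and the WT libraries were nearly equal. The mean was 1.41-fold higher in THUMPD1 KO, a log2 fold change of 0.49 (SE 0.065, limma-voom adjusted p = 0.000383). SLC2A3, the carrier GLUT3, was at 2.31 to 2.87 CPM in WT and 2.88 to 4.14 CPM in THUMPD1 KO and was not called (log2 fold change 0.27, limma-voom adjusted p = 0.225). The 3 annotated pseudogenes named after SLC2A3 held counts equal to 29.0% of those of SLC2A3, so its level is uncertain.

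PDK1 and PDK3 encode kinases that switch off pyruvate dehydrogenase and keep pyruvate out of mitochondria, and they went opposite ways. PDK1 was at 60.1, 55.9 and 56.6 CPM in WT and at 63.0, 63.9 and 65.3 CPM in THUMPD1 KO, a log2 fold change of 0.16 (limma-voom adjusted p = 0.0238). PDK3 was at 137.8, 129.0 and 137.5 CPM in WT and at 115.6, 107.6 and 116.7 CPM in THUMPD1 KO, a log2 fold change of -0.27 (limma-voom adjusted p = 0.00170). Neither gene's groups overlapped, but PDK1 lost its call without WT replicate 2 or 3 or without THUMPD1 KO replicate 2 or 3 (limma-voom adjusted p 0.0715 to 0.0908), while PDK3 kept it in every alternative. PFKFB3 and PFKFB4 make the sugar bisphosphate that activates phosphofructokinase. Their log2 fold changes were -0.14 and -0.12, and neither was called (limma-voom adjusted p = 0.0510 and 0.402). PFKFB3 passed with the replicate block (adjusted p = 0.0295) and without WT replicate 1 (0.0208).

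The subunits of HIF and the prolyl hydroxylases EGLN1 and EGLN3 were not called. HIF1A, the more widely expressed alpha subunit, was at 98.5, 110.3 and 108.9 CPM in WT and at 103.0, 110.5 and 104.3 CPM in THUMPD1 KO, a log2 fold change of -0.01 (95% confidence interval -0.13 to 0.11). ARNT had a log2 fold change of -0.04 and EGLN1, the main prolyl hydroxylase, one of -0.02. EPAS1, the alpha subunit best known from blood vessels and kidney, was at 39.9, 29.8 and 32.7 CPM in WT and at 46.5, 36.3 and 38.3 CPM in THUMPD1 KO. Within both groups replicate 1 was the highest, the groups overlapped, and the log2 fold change was 0.24 (limma-voom adjusted p = 0.116). EPAS1 was called with the replicate block (adjusted p = 0.00296) and without WT replicate 1 (0.0134), but its log2 fold change was only 0.15 without WT replicate 2 (0.330) and 0.14 without THUMPD1 KO replicate 1 (0.348). EGLN3, a prolyl hydroxylase that HIF itself induces, was at 10.5 to 13.05 CPM in WT and 10.2 to 11.1 CPM in THUMPD1 KO, with a log2 fold change of -0.14 (limma-voom adjusted p = 0.360). It was -0.27 without WT replicate 1 (0.0279) and -0.056 without WT replicate 2 (0.755).

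Of the 17 glycolytic enzymes, 6 were lower in THUMPD1 KO, none was higher and 11 were not called. This was 35.3% called, beside 26.7% of all genes tested (13.7% higher, 13% lower). The median log2 fold change was -0.04 beside 0.02 over all genes. At an unadjusted p under 0.05 there were 7, the added PGAM1 being higher, beside 5922 of all 15088 genes. DESeq2 called 6 and edgeR 5, all lower, where they called 24.3% and 25.7% of all genes (13.2% and 13.8% lower). With a correction for GC content and length PGAM1 passed as higher (limma-voom adjusted p = 0.0410), and with that correction and the replicate block both PGAM1 and ENO1 did (0.0367 and 0.0319). The lower ones were HK1, PFKL, PFKP, ALDOA, ALDOC and PGK1, which act before the step of PGAM1. So do HK2, GPI, PFKM, TPI1 and GAPDH, which were not called. Together the 17 genes summed to 7374 ± 210.0 CPM in WT and 7286 ± 106 CPM in THUMPD1 KO (SD, n = 3 each), between 0.713% and 0.751% of all counts in each library, and the sums of the groups overlapped.

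Phosphofructokinase and aldolase genes held the largest of these differences. PFKP, the platelet-type phosphofructokinase (ENSG00000067057.17, GRCh38 chr10:3066333-3137718, plus strand), was at 50.5, 42.5 and 44.5 CPM in WT and at 33.0, 29.0 and 30.5 CPM in THUMPD1 KO, and fell by 0.57 on the log2 scale (limma-voom adjusted p = 0.000204). PFKL, the liver-type form, was at 97.6, 88.2 and 89.3 CPM in WT and at 83.5, 69.3 and 78.0 CPM in THUMPD1 KO, and fell by 0.27 (limma-voom adjusted p = 0.0101). PFKM, the muscle-type form, did not pass the test at a log2 fold change of -0.04. HK1, one of the hexokinases that trap glucose in the cell, fell by 0.16 on the log2 scale from 80.3, 77.3 and 78.9 CPM to 71.9, 68.1 and 72.8 CPM (limma-voom adjusted p = 0.0207), a call lost without WT replicate 3 or THUMPD1 KO replicate 2 (0.0776 and 0.0833). HK2, the hexokinase usually named as the HIF target, ranged from 84.7 to 105.3 CPM in THUMPD1 KO around 98.4 to 100.5 CPM in WT and was not called.

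Aldolases split the doubly phosphorylated sugar that phosphofructokinase makes. ALDOA, the main form, was at 619.4, 618.3 and 644 CPM in WT and at 538, 501 and 561 CPM in THUMPD1 KO, a fall of 0.22 on the log2 scale (limma-voom adjusted p = 0.00662). ALDOC, the brain-type form (ENSG00000109107.14, GRCh38 chr17:28573115-28576948, minus strand), was weakly expressed, at 5.25, 5.21 and 5.45 CPM in WT and 3.63, 3.61 and 3.26 CPM in THUMPD1 KO. It fell by 0.64 on the log2 scale (limma-voom adjusted p = 0.00193), and the groups of both aldolases were separate. PGK1, which makes the first ATP of the pathway, was at 340.5, 367 and 354 CPM in WT and at 333, 326 and 321 CPM in THUMPD1 KO. It was called at a limma-voom adjusted p of 0.0495 and a log2 fold change of -0.13, and lost the call without WT replicate 2 or 3 or THUMPD1 KO replicate 2 or 3 (0.134 to 0.181) and by the edgeR quasi-likelihood test (0.0705).

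Several of the most abundant enzymes differed little. Per kilobase of exon, GAPDH, which oxidizes the triose phosphate, was the highest of the 17 in WT, at 567 CPM per kilobase, followed by LDHB at 225 and TPI1 at 204. The length used is that of all annotated exons of a gene, which can exceed that of its main transcript. This order thus depends on the annotation and need not be that of transcript abundance. GAPDH had 1332, 1379 and 1366 CPM in WT and 1397, 1288 and 1315 CPM in THUMPD1 KO, groups that overlapped, with a log2 fold change of -0.01 (95% confidence interval -0.09 to 0.08). LDHA, which returns pyruvate to lactate and is a classical HIF target, had 733, 820.3 and 821.5 CPM in WT and 792, 821 and 845 CPM in THUMPD1 KO, with a log2 fold change of 0.04 (95% confidence interval -0.06 to 0.15). Pyruvate kinase PKM, lactate dehydrogenase LDHB, phosphoglucose isomerase GPI, triosephosphate isomerase TPI1 and enolase ENO2 had log2 fold changes of -0.00, 0.01, 0.01, 0.03 and -0.07, and none was called. PGAM1 and ENO1, which work between PGK1 and pyruvate kinase, had log2 fold changes of 0.11 and 0.09 (limma-voom adjusted p = 0.119 and 0.158).

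**Figure D3:**
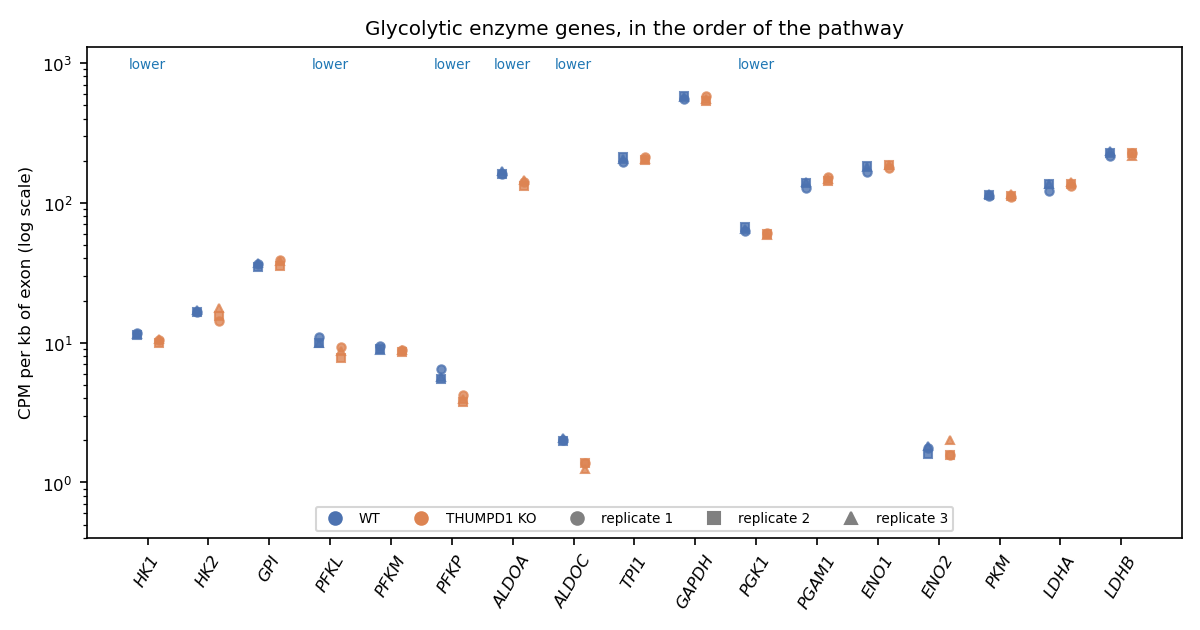
CPM per kilobase of exon for the 17 glycolytic enzymes in each library on a log axis, in the order of the pathway, with 3 WT and 3 THUMPD1 KO points per gene and called genes marked as lower. Levels span from about 1 CPM per kilobase for ALDOC and ENO2 to 567 for GAPDH in WT, and the separation of the groups is visible for PFKP and ALDOC but not for GAPDH, PKM or LDHA.

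Where 2 or 3 genes encode forms of 1 step, their shares of the summed CPM per kilobase of exon were compared within each library, as a description. The size of a share depends on the annotated exon lengths, which were the same for both groups. PFKP made up 24.2%, 22.5% and 23.3% of the phosphofructokinase sum in WT, against 18.8%, 18.6% and 18.3% in THUMPD1 KO. PFKM had a share of 35.95 ± 0.980% in WT against 41.1 ± 1.56% in THUMPD1 KO (SD, n = 3 each), while the shares of PFKL overlapped. Among the pyruvate dehydrogenase kinases PDK1 and PDK3, PDK1 held 33.9%, 33.8% and 32.6% in the WT group, against 39.1%, 41.1% and 39.7% in THUMPD1 KO. The libraries of the 2 genotypes were thus separate for both sets. Sums hold genes of the main set only, which leaves out other expressed forms. PDK2 and PDK4, left out here, stood at 3.72 and 0.515 CPM per kilobase in WT, beside 3.88 for PDK1 and 7.72 for PDK3. ALDOC was 1.22 ± 0.0034% of the aldolase sum in WT and 0.955 ± 0.10% in THUMPD1 KO. For HK1 and HK2, ENO1 and ENO2, LDHA and LDHB, SLC2A1 and SLC2A3, and PFKFB3 and PFKFB4 the shares overlapped between the groups.

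**Figure D4:**
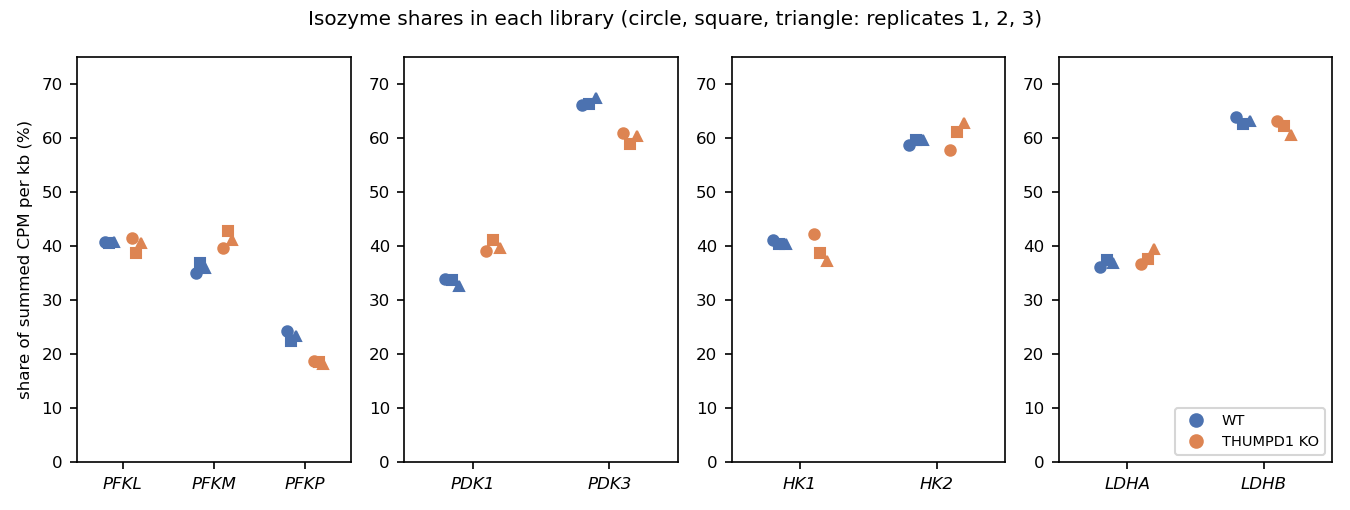
Share of each form in 4 of these sets, in percent of the summed CPM per kilobase of exon of its set, with a point for each of the 3 WT and 3 THUMPD1 KO libraries. PFKP is lower and PFKM higher in all THUMPD1 KO libraries, PDK1 is higher and PDK3 lower, and the shares of HK1 and LDHA overlap.

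Further genes of the HIF pathway were called about as often as all genes, in both directions. From a list of 40, 33 were tested, of which 4 were higher and 5 lower (27.3% called, beside 26.7% of all genes tested). Their median log2 fold change was 0.02. The replicate block raised the counts to 7 higher and 8 lower, where 35.1% of all genes were called. HIF1AN, the asparaginyl hydroxylase that is another oxygen sensor of HIF, was called higher at a log2 fold change of 0.15 (limma-voom adjusted p = 0.0287), a call lost without WT replicate 2 or 3 or THUMPD1 KO replicate 1 or 3 (0.0752 to 0.110). HIF1AN also lost its call without a filter on low counts (limma-voom adjusted p = 0.0577), and it is named after its values were seen. The collagen cross-linking enzyme LOX was at 10.1, 9.24 and 9.98 CPM in WT and 15.5, 13.5 and 14.3 CPM in THUMPD1 KO, a log2 fold change of 0.56 (limma-voom adjusted p = 0.000475). The glycogen branching enzyme GBE1 and the haem oxygenase HMOX1 had called rises of 0.30 and 0.28 on the log2 scale. The carbonic anhydrase CA12 was at 7.67, 6.64 and 6.73 CPM in WT and 4.25, 3.61 and 3.32 CPM in THUMPD1 KO, a log2 fold change of -0.95 (limma-voom adjusted p = 0.000174). The glycogen synthase GYS1 and the cytokine MIF fell by 0.40 and 0.49 on the log2 scale. HILPDA and PPFIA4 were the other lower genes, at log2 fold changes of -0.28 and -0.34 (limma-voom adjusted p = 0.0139 and 0.0229). Both are named after their values were seen. MIF and HMOX1 lie on chromosome 22 among genes whose median log2 fold change was -0.40 (the 20 nearest tested genes of each), so that MIF moved with its neighbours and HMOX1 against them. For the members of the main set with tested neighbours this median lay between -0.10 and 0.13. HIF3A, ANGPTL4, SLC16A3, PPP1R3C, IGFBP3 and EPO were among the genes below the filter.

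Among other genes of glucose metabolism, 1 changed by about as much as DDIT4, in the other direction. SLC16A7, the monocarboxylate carrier MCT2, was at 2.40, 2.12 and 1.72 CPM in WT and 6.30, 6.62 and 6.18 CPM in THUMPD1 KO, a log2 fold change of 1.56 (SE 0.13, limma-voom adjusted p = 2.11e-05). The THUMPD1 KO libraries were all far above the highest WT library, though levels were low. Of the 30 genes listed, 20 were tested, 4 were higher and 3 lower (35% called, beside 26.7% of all genes tested). The median log2 fold change was -0.03. The testis-type lactate dehydrogenase LDHC and the lactate carrier SLC16A1 had log2 fold changes of 0.63 and 0.20. PDK4, PCK2 and ENO3 fell by 0.68, 1.13 and 0.54 on the log2 scale. PCK2, the mitochondrial form of phosphoenolpyruvate carboxykinase and a known ATF4 target, was at 32.2, 14.6 and 18.9 CPM in WT and at 15.03, 7.21 and 8.10 CPM in THUMPD1 KO (limma-voom adjusted p = 0.0171). Its groups overlapped, replicate 1 was highest in both, and it did not pass when THUMPD1 KO replicate 2 or 3 was left out (0.101 and 0.0765). Calls were also lost for PDK4 without WT replicate 3 or THUMPD1 KO replicate 3 (0.0535 and 0.0546), for SLC16A1 without WT replicate 1 or 3 or THUMPD1 KO replicate 2 (0.0554 to 0.0879, with a log2 fold change of 0.13 in the last case), and for ENO3 in 4 of the 6 cases, all but WT replicate 1 and THUMPD1 KO replicate 3 (0.0648 to 0.111). ENO3 also lost its call with TMM, plain library sizes and no filter (limma-voom adjusted p = 0.0506, 0.0691 and 0.0633). The same held for ENO3 with edgeR (0.0601) and DESeq2 (0.138). PCK2 lost its call with DESeq2 (0.0518) and without a filter (limma-voom adjusted p = 0.0529). SLC16A1 did so with edgeR (0.055) and with the GC and length correction (limma-voom adjusted p = 0.073). PFKFB1, HKDC1, PGK2, PGAM2, PKLR, GAPDHS, GPD1 and FBP1 were among the genes below the filter.

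DDIT4 acts on mTORC1 through the TSC complex, and it is induced by factors besides HIF. Of 9 genes of that control, 3 were lower and none higher (33.3% called), beside 26.7% of all genes tested (13.7% higher, 13% lower). With the replicate block 4 of the 9 were lower, where 35.1% of all genes were called (18.4% higher, 16.7% lower). The added gene was SESN2, a stress-induced inhibitor of mTORC1 (log2 fold change -0.63, limma-voom adjusted p = 0.0533 without and 0.00162 with the block). SESN2 was at 122, 58.7 and 69.1 CPM in WT and at 58.5, 46.5 and 50.9 CPM in THUMPD1 KO, so that its groups were separate and WT replicate 1 stood apart. Without that library the log2 fold change was -0.31 (limma-voom adjusted p = 0.0225), and it also passed without WT replicate 2 or 3 (0.00717 and 0.0489). It is named after its values were seen, as is DDIT3. SESN3 and TXNIP, both known to act on this pathway in stress, fell by 0.31 and 0.23 on the log2 scale, and TSC2, a TSC subunit, by 0.22. Of 7 other regulators of DDIT4, ATF4 and CEBPB were lower and none was higher (28.6% called, near the 26.7% of all genes). With the replicate block 4 of the 7 were lower, DDIT3 among them (limma-voom adjusted p = 0.0366). ATF4, the transcription factor of the integrated stress response, was at 626, 516 and 542 CPM in WT and at 473, 425 and 422 CPM in THUMPD1 KO, a log2 fold change of -0.37 (limma-voom adjusted p = 0.00604). As for DDIT4, replicate 1 was the highest WT library and the groups did not overlap. The genes nearest to ATF4 on chromosome 22 and to TSC2 on chromosome 16 had medians of -0.33 and -0.37, so both moved with their neighbourhoods. CEBPB, a partner of ATF4 in stress responses, was at 36.7, 22.9 and 26.5 CPM in WT and 22.4, 17.3 and 19.5 CPM in THUMPD1 KO, a log2 fold change of -0.52 (limma-voom adjusted p = 0.0232). Without WT replicate 1, its highest library, the log2 fold change was -0.33. It lost its call when THUMPD1 KO replicate 2 or 3 was left out (0.114 and 0.0757), as TSC2 did for replicate 2 (0.0636) and TXNIP for replicate 1 or 3 (0.0577 and 0.0785). Without a filter CEBPB and TXNIP lost their calls (limma-voom adjusted p = 0.0662 and 0.0553). With the GC and length correction CEBPB and TSC2 did (0.0581 and 0.0503). Their part in the level of DDIT4 was not tested.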

How the data were processed

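A single table from RNA sequencing of HEK-293T cells was used, with 3 libraries each of WT and THUMPD1 KO. Trizol-extracted total RNA was turned into stranded libraries after removal of ribosomal RNA, and paired ends were read on a NovaSeq instrument. Per the study's methods and processing notes, the authors aligned reads to GRCh38 (hg38) with STAR and quantified genes with RSEM. The deposited values are expected counts per gene, which need not be whole and are not scaled between libraries. Tool versions and the strand setting of the counting are not given in the sources used here, so reads of overlapping genes may be shared, and only 8 of the 41 genes, 3 of them called (DDIT4, ADM and PFKL), overlap no other annotated gene. Depth was 32225646 to 44099898 counts per library. The floor of 3 counts covers counting error only.

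Groups and replicate numbers came from the labels. The 15088 genes that reached 1 CPM in 3 or more libraries were kept. limma-voom (limma 3.58.1, R 4.3.3) was run with quantile normalization and with a term for genotype alone. Two-sided p values were used, with Benjamini-Hochberg adjustment over all genes tested and a threshold of 0.05. CPM used total counts per library. Positions, exon lengths (all annotated exons of a gene merged) and neighbours were read from GENCODE 44 (GRCh38), which held 58472 (99.32%) of the Ensembl IDs. The study's methods name a later GENCODE release for the counting. Promoter windows came from RefSeq on GRCh38.p14, where 37 of the 41 genes had one and NDRG1, VEGFA, BNIP3L and SLC2A3 were not found. Printed were DDIT4 and the called HIF targets with the largest changes, except VLDLR, whose window starts inside the GENCODE span of the gene.

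Alternatives were TMM or plain library sizes, 3 other filters, edgeR 4.0.16 (quasi-likelihood) and DESeq2 1.42.0 on rounded counts, sample quality weights, a replicate block, removal of trends with GC content and length with and without that block, addition of pseudogene counts, leaving out each library, and a threshold of 0.01. Over 11717 genes with a mean of at least 5 CPM, same-numbered WT and THUMPD1 KO libraries deviated together from their group means (r = 0.206, 0.155 and 0.134). Other pairs ranged from -0.161 to 0.0820. All negative pairs held a replicate 1, while WT 2 with THUMPD1 KO 3 (0.0820) and WT 3 with THUMPD1 KO 2 (0.0492) were positive. Deviations within a group cancel out, so a shared trait of replicate 1 alone could give much of this pattern. It does not settle that 2 pairs with 2 and 3 with 3. The numbers were taken to pair the libraries, from the data and not from a stated design, and calls with the replicate block rest on this. The scripts were tested on simulated data. The genes and lists were chosen with earlier results of these data known. All 41 genes are named, and from each other list at most 6 called genes with the smallest adjusted p, besides genes below the filter, some of which are not reported here.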

Additional observations from a re-analysis of the deposited data

How the results depend on the processing

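DDIT4 kept its direction and call in all alternatives run, at log2 fold changes of -1.70 to -1.30 and adjusted p under 0.01. So did the calls of ADM, MXI1, SLC2A1, PDK3, PFKL, PFKP, ALDOA and ALDOC, so that 9 of the 15 calls held in each alternative judged at 0.05. None of the 15 called genes turned its direction. Of 702 values recomputed for single genes, 608 kept direction and call, 29 lost a call, 24 gained one and 41 turned sign, the last in 11 uncalled genes close to 0. The cause of the lost, gained and turned values was not tested. With plain library sizes the values were 0.0032 and -0.022 in HIF1A and LDHB. With the GC and length correction the values were -0.039, 0.047, 0.012, -0.018 and -0.014 in P4HA1, GAPDH, PKM, LDHA and LDHB. With that correction with the block the values were -0.041, 0.047, 0.012, -0.018 and -0.014 in P4HA1, GAPDH, PKM, LDHA and LDHB. With DESeq2 the values were -0.0077, -0.0095 and -0.047 in BNIP3, TPI1 and LDHB. With TMM the values were -0.0016, -0.0087 and -0.048 in BNIP3, TPI1 and LDHB. With edgeR the values were -0.0083, -0.010 and -0.048 in BNIP3, TPI1 and LDHB. With sample quality weights the values were -0.035, -0.018, 0.0094 and -0.0053 in BNIP3, P4HA1, PKM and LDHB. With 1 library left out, the log2 fold change ran from -0.067 to 0.026 for HIF1A, -0.061 to 0.018 for EGLN1, -0.074 to 0.072 for BNIP3, -0.046 to 0.075 for P4HA1, -0.026 to 0.062 for GPI, -0.027 to 0.017 for GAPDH, -0.18 to 0.017 for ENO2, -0.024 to 0.022 for PKM, -0.0018 to 0.015 for LDHB. Leaving out 1 library gave 11 to 18 called genes of the set, 6 to 11 called HIF targets and 4 to 6 called glycolytic enzymes, while 17.6% to 28.1% of all genes were called. At a threshold of 0.01 the counts were 9 of the set, where 15 were called at 0.05, and 3 glycolytic enzymes, where 6 were, and PFKL missed it at 0.0101. At that threshold 13.8% of all genes were called. The replicate block gave 19 called genes of the set, 12 HIF targets and 6 glycolytic enzymes, adding EPAS1, VEGFA, KDM3A and PFKFB3, and changed no other call of the set. It called 35.1% of all genes. Without a filter on low counts the set had 12 calls, with 10.1% of all genes called. Besides the calls named with the genes, BNIP3L missed the threshold with the GC and length correction (limma-voom adjusted p = 0.0544). PDK1 missed it with DESeq2 (0.0895) and with that correction, without and with the block (limma-voom adjusted p = 0.0763 and 0.0546). Without a filter PDK1, NDRG1 and PGK1 missed it (limma-voom adjusted p = 0.0583, 0.0797 and 0.0561). PGK1 also missed it with TMM, plain library sizes and pseudogene counts added (limma-voom adjusted p = 0.0511, 0.0661 and 0.0539). With 3 libraries a group, small differences may go unseen, and the estimates for CA9 and ANKRD37 rest on few counts.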
